A study of Mus musculus with 24 samples.

Results

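The small RNAs of mouse embryonic stem cells (mESC) labelled Htt knockout (KO) were compared with those of neural progenitor cells (NPC) of the same genotype. The comparison rests on 4 of the 24 libraries in the series, 2 of KO mESC and 2 of KO NPC, chosen by their genotype and cell type labels and not by measured values. The series was designed around the length of the CAG repeat in Htt, the gene of Huntington's disease. Beside the KO it holds wild-type (WT) cells and 4 knock-in lines, heterozygous for a set repeat and labelled Q20, Q50, Q92 or Q111 by its length. Each genotype was sampled as mESC and as NPC with 2 libraries, which the design text calls biological samples. Per the labels, mESC were kept with leukemia inhibitory factor on gelatin and irradiated mouse fibroblasts as feeders. NPC were made from them as a monolayer in N2B27 medium and then passaged on laminin with FGF and EGF. That text names the knock-in lines. How the KO line was made, and whether it is 1 clone, is not given in the sources used here. No drug or other treatment separates the groups, so KO mESC and KO NPC share the genotype and differ in culture and cell type.

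Small RNA libraries hold several classes of short RNA. MicroRNAs are cut from hairpins, are loaded into Argonaute proteins and repress messenger RNAs that pair with the seed at bases 2 to 8. The Mir290 to Mir295 cluster is the hallmark microRNA cluster of mouse embryonic stem cells, whereas miR-9, miR-181 and let-7 are typical of neural cells. Small nucleolar RNAs (snoRNAs) guide chemical changes of ribosomal RNA: box C/D members direct methylation and box H/ACA members direct pseudouridylation, and most are cut from introns. Small Cajal body RNAs (scaRNAs) do the same for spliceosomal RNAs. Y RNAs are short transcripts of RNA polymerase III that bind the Ro60 and La proteins and are often found as fragments. The imprinted Dlk1-Dio3 domain produces long noncoding RNAs, snoRNAs and microRNAs from the maternal chromosome in one direction.

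The following mature microRNAs (RefSeq, GRCm38.p6) are printed because they come from called genes of the stem-cell, Mir17-92 family, neural and let-7 lists. Of these microRNAs, 6 come from genes lower in NPC and 3 from genes higher in NPC. Capitals mark the seed, and the arm that was sequenced is not known, since counts were given per gene.
miR-293-5p: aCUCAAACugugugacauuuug
miR-292a-5p: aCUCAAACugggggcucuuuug
miR-291a-3p: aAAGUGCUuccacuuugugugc
miR-295-3p: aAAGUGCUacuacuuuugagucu
miR-106a-5p: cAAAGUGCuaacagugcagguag
miR-20b-5p: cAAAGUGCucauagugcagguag
miR-181a-5p: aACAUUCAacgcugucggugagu
miR-9-5p: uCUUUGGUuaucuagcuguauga
let-7c-5p: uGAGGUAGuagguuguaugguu
The arms printed for the 6 microRNAs of genes lower in NPC fall into pairs with a common seed. These are CUCAAAC for miR-293-5p and miR-292a-5p, AAGUGCU for miR-291a-3p and miR-295-3p, and AAAGUGC for miR-106a-5p and miR-20b-5p. Pairing depends on the arm: the seeds of miR-293-3p (GUGCCGC), miR-291a-5p (AUCAAAG) and miR-295-5p (CUCAAAU) each occur in 1 tested gene. The 3p arms of Mir106a and Mir20b have CUGCAGU in common. The 3 microRNAs of genes that were higher differ from each other in seed. Of them, miR-181a-5p and miR-9-5p each come from 2 tested genes. Of the 25 microRNA genes tested, 24 were matched to RefSeq mature microRNAs by gene symbol or, failing that, by position.

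The Y RNAs are shown because Rny1 took the largest share of the NPC libraries (GENCODE M21, GRCm38). Capitals mark the longest stretch that Rny1 and Gm26168 have in common, 61 bases from base 8 to base 68 of Rny1.
Rny1: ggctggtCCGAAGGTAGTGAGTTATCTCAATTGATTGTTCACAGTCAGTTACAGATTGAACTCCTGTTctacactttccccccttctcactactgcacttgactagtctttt
Gm26168: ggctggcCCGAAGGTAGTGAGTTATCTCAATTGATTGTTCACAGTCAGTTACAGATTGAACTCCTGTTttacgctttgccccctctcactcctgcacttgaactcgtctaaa
Rny3: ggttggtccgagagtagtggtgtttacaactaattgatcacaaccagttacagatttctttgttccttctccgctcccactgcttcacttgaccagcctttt
Rny1 lies on chromosome 6 (47788069 to 47788180, minus strand), Rny3 on the same chromosome (47781624 to 47781725, plus strand) and Gm26168 farther along it (122623547 to 122623658, plus strand). Rny1 and Gm26168 were identical at 90.3% of aligned positions, and Rny1 and Rny3 at 72.3%. A read within the common stretch cannot be assigned to Rny1 or Gm26168.

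The snoRNAs below are 3 of the Dlk1-Dio3 domain and 2 cut from introns of protein-coding genes, Snord82 in Ncl and Snord61 in Rbmx (GENCODE M21, GRCm38). Capitals mark a C box searched as TGATGA in the first 25 bases and a D box searched as CTGA in the last 20, on the annotated strand.
AF357428: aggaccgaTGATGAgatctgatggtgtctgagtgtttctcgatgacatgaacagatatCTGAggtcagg
Gm25854: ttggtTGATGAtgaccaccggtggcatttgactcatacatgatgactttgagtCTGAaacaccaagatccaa
Gm25856: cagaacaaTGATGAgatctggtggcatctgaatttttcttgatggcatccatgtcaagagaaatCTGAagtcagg
Snord82: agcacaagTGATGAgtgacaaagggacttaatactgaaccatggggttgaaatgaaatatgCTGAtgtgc
Snord61: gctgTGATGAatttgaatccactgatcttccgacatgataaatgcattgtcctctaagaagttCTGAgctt
Both boxes were found in 8 of 8 tested snoRNAs of the domain (100%). They were found in 23 of 40 tested Snord genes with a snoRNA biotype and at most 150 bases (57.5%). Among all 1454 annotated snoRNA genes of at most 150 bases, box H/ACA genes included, 307 had both (21.1%). A match describes the letters and is not evidence of a working box.

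The KO mESC libraries held 2171235 and 962520 counts and the KO NPC libraries 385365 and 351955, within a range of 342022 to 2360434 over all 24. Levels are given in CPM, counts per 1e+06 counts of the library total scaled by TMM, and they are not compared between genes. A group without a count allows up to 3 counts over its 2 libraries, or 0.999 CPM in mESC and 3.1 CPM in NPC, and a fold against such a group is given as "at least". With 1 library the limit would be 1.51 or 2.94 CPM in mESC and 5.88 or 6.54 CPM in NPC, so each such fold rests on both libraries of the empty group. Limits and count intervals (95%) cover counting error only. Htt itself, the targeted gene, had 3 and 2 counts in KO mESC and 1 and 1 in KO NPC, against 8 and 8 in WT mESC and 9 and 2 in WT NPC. These counts were too few for a test, and where the deletion lies within Htt is not given. P-values measure the spread between these libraries, and with 2 against 2 an exact permutation test of a single value cannot go below 0.333. Fewer cells of a type and less RNA per cell cannot be told apart in bulk libraries.

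The cell type labels were checked against reads counted to marker messenger RNAs, which small RNA libraries hold at low counts. Nanog had 12 and 5 counts in KO mESC and 0 in both KO NPC libraries, and Pou5f1 had 7 and 10 against 0 and 0. Both encode core pluripotency factors. Nes, which encodes the progenitor filament protein nestin, had 0 and 0 counts in mESC and 3 and 2 in NPC, and Olig2 had 0 and 0 against 9 and 7. Pax6 went against its use as a progenitor marker, with 3 and 1 counts in mESC and none in NPC. Of the other cell types, the 15 feeder fibroblast genes held 56 and 21 counts in mESC and 5 and 4 in NPC. Of the mESC counts, 52 and 18 came from Fn1, and Col1a1, Col3a1, Dcn and Lum had none in any of the 4 libraries. The feeder genes summed to 28.3 and 20.6 CPM in mESC and 9.80 and 8.72 CPM in NPC. The 24 genes of neurons and glia summed to 16.6 and 14.7 CPM in mESC and 86.2 and 34.9 CPM in NPC, with no count for Gfap, Dcx or Rbfox3. Within that list the neuronal gene Stmn2 went the other way, with 11 and 5 counts in mESC and 0 and 0 in NPC. Their part in the differences below was not tested.

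The make-up of the libraries differed most in Y RNAs. Y RNAs took 1.69% and 1.55% of all counts in KO mESC (1.62% ± 0.0986, SD, n = 2) and 28.0% and 16.2% in KO NPC (22.1% ± 8.32, SD, n = 2). The same share was 0.684% to 1.37% in the 10 other mESC libraries and 13.2% to 40.6% in the 10 other NPC libraries. Box C/D snoRNAs, named by their Snord symbol, made up 51.1% and 43.9% of mESC counts and 35.3% and 40.6% of NPC counts. Mitochondrial transcripts made up 0.616% and 0.975% in mESC and 3.02% and 2.48% in NPC. In both of these classes the KO groups did not overlap. Shares of a library add up to a whole, so the larger Y RNA share in NPC lowers those of other classes. A box C/D share apart from Y RNAs was not computed, so the lower box C/D share does not show a fall of these RNAs. Genes with a microRNA symbol took 0.205% and 0.461% in mESC and 0.0885% and 0.161% in NPC, so microRNA levels rest on few counts. By the Ensembl biotype the microRNA share would be 8.80% ± 3.06 (SD, n = 2) for mESC against 2.59% ± 0.311 (SD, n = 2) for NPC, because the snoRNA gene Snord43 carries that biotype.

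**Figure D1:**
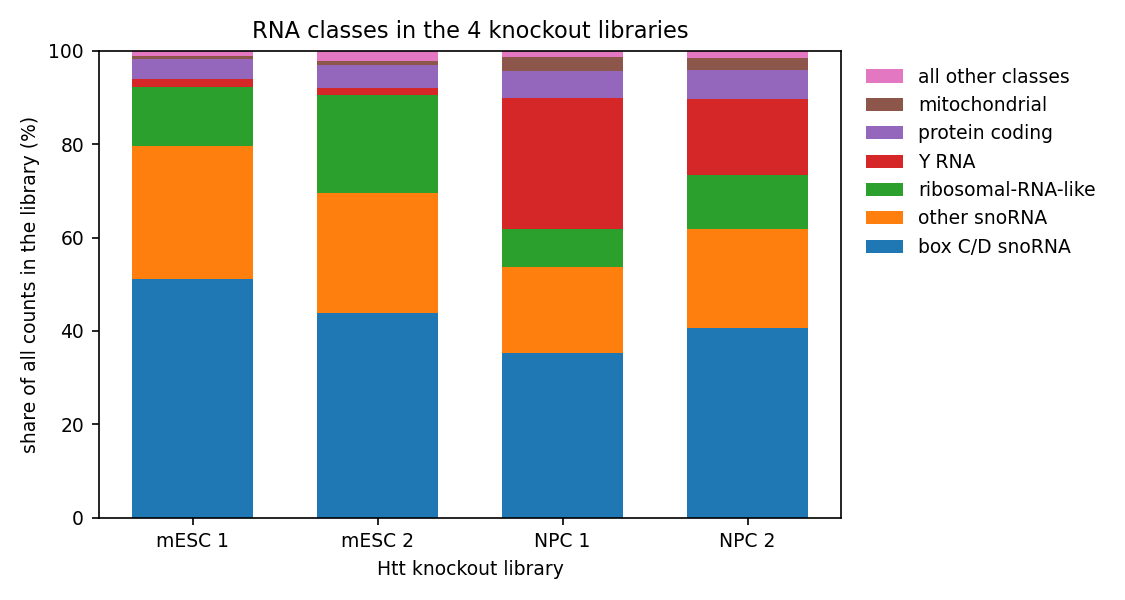
Share of all counts in each KO library (percent, vertical axis) by RNA class, classes set by gene symbol, 1 stacked bar per library. The Y RNA block grows from 1.69% and 1.55% in the mESC libraries to 28.0% and 16.2% in the NPC libraries. Within the fixed total of each bar, the blocks of box C/D and other snoRNAs shrink.

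KO NPC and KO mESC differed in many of the genes that could be tested. Of 437 genes with enough counts in the KO libraries, 164 passed edgeR's quasi-likelihood test at an adjusted p of 0.05 (37.5%). Of these, 96 were higher in NPC (22%) and 68 were lower (15.6%). The median log2 difference over all 437 genes was 0.04. The 2 NPC values lay wholly above or below the 2 mESC values in 296 genes (67.7%), so a lack of overlap alone is common here. Protein-coding genes had 62 higher and 22 lower of 237 tested, snoRNAs other than those with a Snord or Snora symbol 5 higher and 15 lower of 51, and microRNAs 8 higher and 10 lower of 25. The share of calls that were higher was 58.5%, and it was 70.9% when counts were scaled by library totals (122 higher, 50 lower) and 68.7% when TMM was computed on snoRNAs alone (114 higher, 52 lower). Those scalings moved the median of all genes to 0.46 and 0.34. Without the filter on low counts the median was -0.98, with 73 higher and 116 lower. That setting ended the calls given below for Rny3, Mir9-3, Mir99b, Notch1, Peg10, Snord61, Snord90, Scarna9, mt-Rnr1, mt-Rnr2 and mt-Tq. A fit of the 4 KO libraries alone ended those of Mir99b and Snord49a and made 142 calls in all. Leaving out 1 KO library gave 114 to 150 calls.

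**Figure D2:**
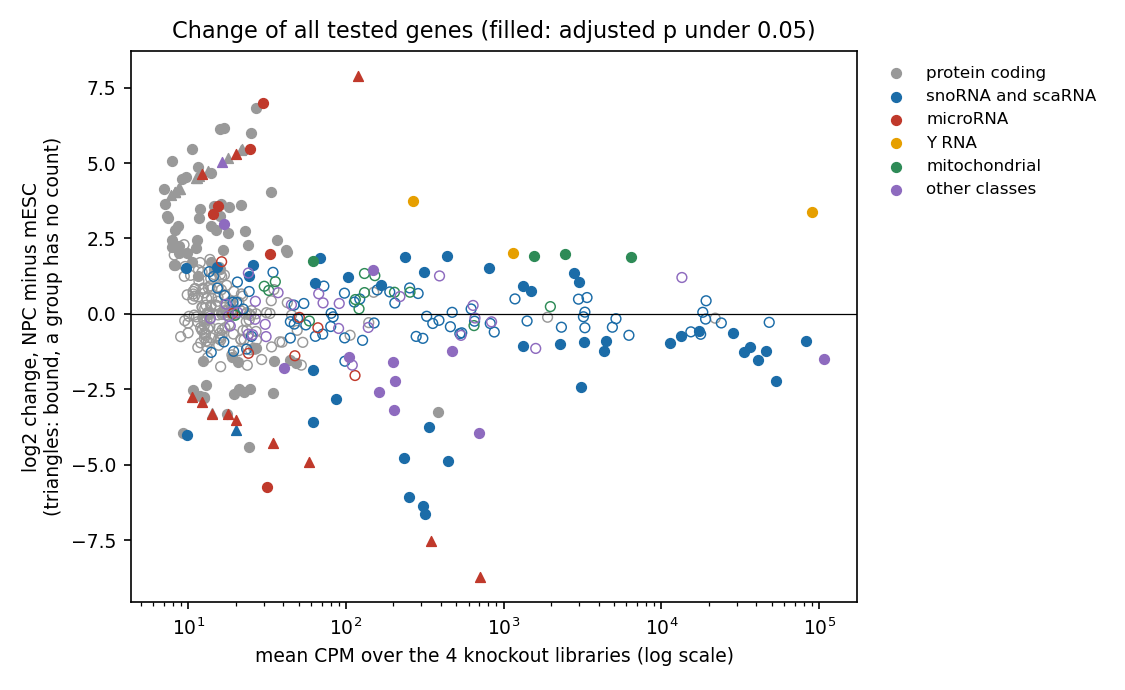
Log2 difference of NPC minus mESC (vertical axis) against the mean CPM over the 4 KO libraries (horizontal axis, log scale) for the 437 tested genes, 1 point per gene, coloured by class and filled where the adjusted p was under 0.05. Triangles mark genes without a count in 1 group, drawn at their bound. The 3 Y RNA genes lie above 0, and the microRNAs split into a higher and a lower group.

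The stem-cell microRNAs were lost from the counts in KO NPC. Mir293 (chromosome 7, 3220343 to 3220422) had 2198 and 1749 counts in the mESC libraries, or 1109 and 1713 CPM, and 0 in both NPC libraries. NPC were at least 424-fold lower (edgeR adjusted p 2.79e-07). Mir292 (chromosome 7, 3219189 to 3219270) had 593 and 1109 counts against 0 and 0, at least 183-fold lower (edgeR adjusted p 0.000201). Every mESC value of both genes stood far above the limit that an empty NPC group allows. Mir295 had 87 and 192 counts against 0 and 0 (at least 30-fold lower), and Mir291a had 41 and 52 against 0 and 0 (at least 10-fold lower). All of these genes lie within an exon of Nlrp12 on the other strand, and whether the counting used strand is not stated. Of the 13 microRNA genes of the stem-cell list, 9 had a count and 4 were tested, and these 4 were called lower, against 15.6% of all genes. They passed the filter only through mESC, so a difference was bound to follow. Their median was -11.13, or -6.21 with the genes at their bound. The other 5 genes with counts summed with these to 2971 and 3127 counts in mESC and 0 in NPC. In the NPC libraries of the other lines Mir293 was at 0 outside Q20, where it reached 96.9 CPM.

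Further microRNAs that were called lower came from clusters with roles in proliferation and in the stem-cell state. Mir106a (73 and 20 counts in mESC, 0 and 0 in NPC) was at least 10-fold lower, and Mir20b (39 and 23 against 0 and 0) at least 6.67-fold lower. They belong to the Mir106a-363 cluster on chromosome X, a paralog of Mir17-92. Of 15 genes of these clusters 7 had a count, with 185 and 75 counts in mESC and 2 and 1 in NPC. The 2 that were tested were called lower, against 15.6% of all genes. They passed the filter only through mESC, so a difference was bound to follow. Mir182 had 80 and 99 counts and Mir183 had 48 and 57, both against 0 and 0, at least 19.3-fold and 11.3-fold lower. Both are transcribed together on chromosome 6. Mir877, cut from an intron of Abcf1, had 205 and 269 counts against 10 and 32 and did not pass, with a log2 difference of -2.04 ± 0.81 (SE, edgeR adjusted p 0.0603). It passed without KO mESC replicate 1 (adjusted p 0.0396) and without KO NPC replicate 2 (adjusted p 0.0446) in the same edgeR test, and DESeq2 called it with no library left out (adjusted p 0.014). Mir101b had 147 and 64 counts against 8 and 17, at -1.39 ± 0.56 (SE, edgeR adjusted p 0.0576), and passed without KO NPC replicate 2 (adjusted p 0.0403) and by DESeq2 (adjusted p 0.0289).

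The tested neural microRNAs were higher in KO NPC. Mir181a-1 (chromosome 1, 137966455 to 137966541) had 0 counts in both mESC libraries and 87 and 142 in NPC, or 170.5 and 309.6 CPM. That puts NPC at least 237-fold above mESC (edgeR adjusted p 1.59e-06), and its position overlaps an exon of A430106G13Rik. The second locus for miR-181a-5p, Mir181a-2 (chromosome 2, 38852735 to 38852810), had 3 and 0 counts against 26 and 21, a ratio of 48.6 (15.6 to 244). Without KO mESC replicate 1 its fitted log2 difference moved from 5.47 to 8.53. The mature sequence of the 2 loci is identical, so reads from that arm cannot be told apart. Mir181d, another Mir181 gene, went the other way, with 6 and 5 counts in mESC and 0 and 0 in NPC, and was not tested. Mir9-1 had 0 and 0 counts against 15 and 9 (at least 24.8-fold higher), and Mir9-3 had 2 and 5 against 15 and 10, at 3.30 ± 0.66 on the log2 scale (SE, edgeR adjusted p 0.000487). Without KO mESC replicate 1 the latter was 2.36 and without replicate 2 it was 4.51. The mature arms of the Mir9 loci are identical too. The Mir9 family is a textbook regulator of neural progenitors.

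The remaining microRNAs called higher were a mixed group. Mirlet7c-1, a member of the let-7 family that opposes the stem-cell program, had 0 and 0 counts against 12 and 26 (at least 39.3-fold higher), the only one of 14 listed let-7 genes with enough counts. Mir351 had 0 and 1 counts against 17 and 39, a ratio of 174 (29.9 to 6980). Without mESC replicate 1 the fitted log2 difference of Mir351 was 5.73, and without mESC replicate 2 it was 8.87. Mir30a had 5 and 2 counts against 17 and 11, at 3.57 ± 0.69 on the log2 scale (SE, edgeR adjusted p 0.000196). Mir99b had 24 and 15 counts against 14 and 36, at 1.98 ± 0.69 (SE, edgeR adjusted p 0.0308). Its call rested on single libraries: the edgeR adjusted p was 0.132 without KO mESC replicate 1, 0.073 without KO mESC replicate 2 and 0.374 without KO NPC replicate 2. Of the 29 neural microRNAs listed, 14 had a count and 5 were tested, all 5 called higher against 22% of all genes, with a median of 5.47 (4.63 with empty groups at their bound). Of these, 2 had no count in mESC. None of the 5 had enough mESC counts to pass the filter without NPC, which favoured a higher value there. MicroRNAs of fibroblasts were nearly absent, with 4 and 1 counts in mESC and 1 and 1 in NPC over 12 genes.

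**Figure D3:**
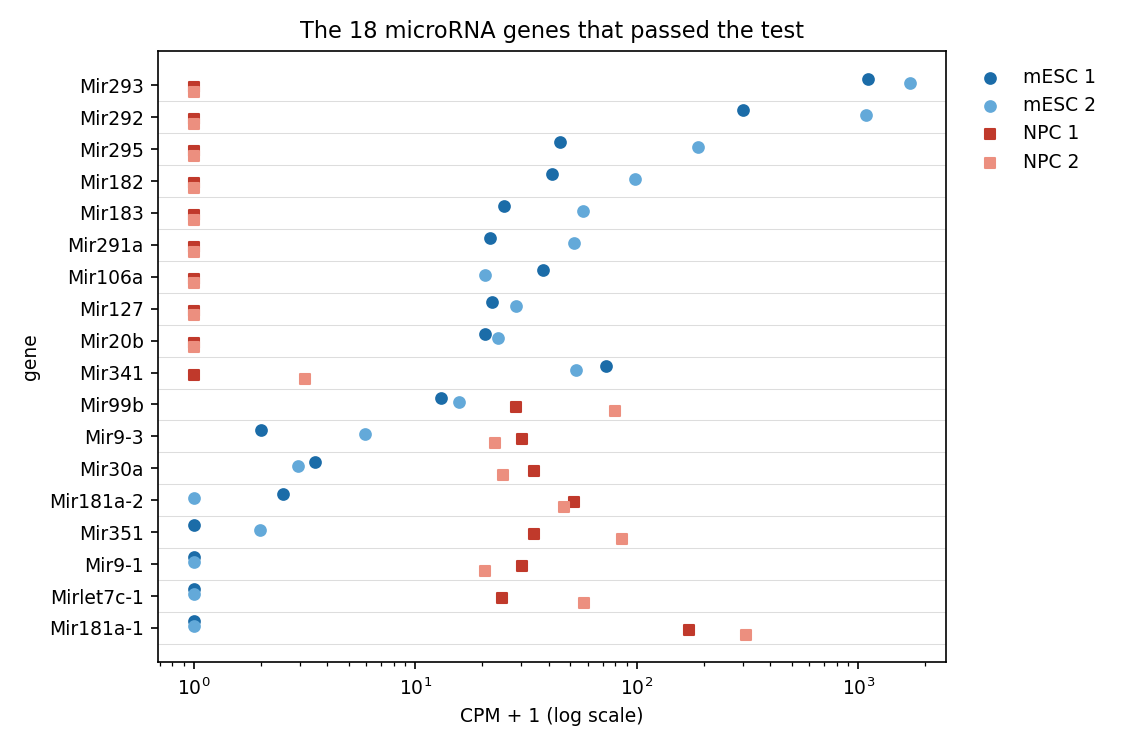
CPM plus 1 (horizontal axis, log scale) of the 18 microRNA genes that passed the test, in each KO mESC library (blue circles) and KO NPC library (red squares). In 9 genes both NPC libraries are at 0 counts, and Mir181a-1 is at 0 in both mESC libraries and at 170.5 and 309.6 CPM in NPC.

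RNAs of the Dlk1-Dio3 domain were far lower in KO NPC than in KO mESC. Between the 5' end of Meg3 and the 3' end of Mirg (chromosome 12, 109541001 to 109749460), 98 genes are annotated, 52 had a count in the KO libraries, and 11 were tested. All 11 tested were called lower and 0 higher, against 15.6% of all genes, and each passed the filter through mESC. The interval summed to 9794 and 5757 counts in mESC, or 4940.6 and 5637.3 CPM, and to 88 and 110 counts in NPC, or 172.5 and 239.9 CPM. Rian, the long noncoding RNA that hosts many of the small RNAs (109603940 to 109661716), had 2709 and 1288 counts in mESC and 43 and 40 in NPC. In CPM the Rian values were 1367 and 1262 against 84.3 and 87.2, and both replicate pairs were close. Rian fell by 3.94 ± 0.35 on the log2 scale (SE, edgeR adjusted p 1.21e-06). Its exons overlap annotated small RNAs, so part of its reads may be theirs.

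The tested snoRNAs of the domain were all called lower. Gm25856 (109682994 to 109683068) had 1524 and 499 counts against 1 and 5, a log2 difference of -6.62 ± 0.77 (SE, edgeR adjusted p 2.90e-06). It was -5.84 without KO NPC replicate 1 and -8.24 without KO NPC replicate 2. Gm25854 (109686798 to 109686869) had 595 and 701 counts against 5 and 2, at -6.08 ± 0.76 (SE), and moved to -5.36 without KO mESC replicate 2 and to -6.78 without KO NPC replicate 1. AF357428 (109679945 to 109680013) had 966 and 776 counts against 16 and 28, at -3.76 ± 0.40 (SE, edgeR adjusted p 3.22e-06). Gm22981 had 1395 and 526 counts against 3 and 4 (-6.37 ± 0.96, SE), and Gm23787 had 1050 and 378 against 9 and 7 (-4.76 ± 0.60, SE). AF357341 had 1033 and 1231 counts against 10 and 18, at -4.88 ± 0.71 (SE), or -4.15 without KO mESC replicate 2. Gm22981 has 69.6% of its 30-base stretches in common with Gm23736, which makes the split of their reads uncertain. Gm23736 itself had 33 and 21 counts against 0 and 1, a ratio of 0.0574 (0.00143 to 0.334), and its call ended without KO NPC replicate 1 (edgeR adjusted p 0.0748). Gm24564, in an intron of Rian, had 105 and 28 counts against 0 and 0 (at least 14.3-fold lower).

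The microRNAs of the domain showed the same direction at lower counts. Mir341, in an intron of Rian, had 142 and 53 counts against 0 and 1, a ratio of 0.0159 (0.0004 to 0.0896). Its fitted log2 difference of -5.74 became -4.75 without KO NPC replicate 1 and -8.98 without KO NPC replicate 2. Mir127, transcribed antisense to Rtl1, had 42 and 28 counts against 0 and 0 (at least 7.53-fold lower). Over the 58 microRNA genes listed for the domain, 38 had a count, with 356 and 255 counts in mESC and 1 and 4 in NPC. In the other lines the interval spanned 2025.6 to 12341.0 CPM in mESC and 62.7 to 4663.9 CPM in NPC, where all values above 389.7 CPM came from the Q20 libraries. The KO NPC values lay inside the range of the remaining NPC libraries.

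**Figure D4:**
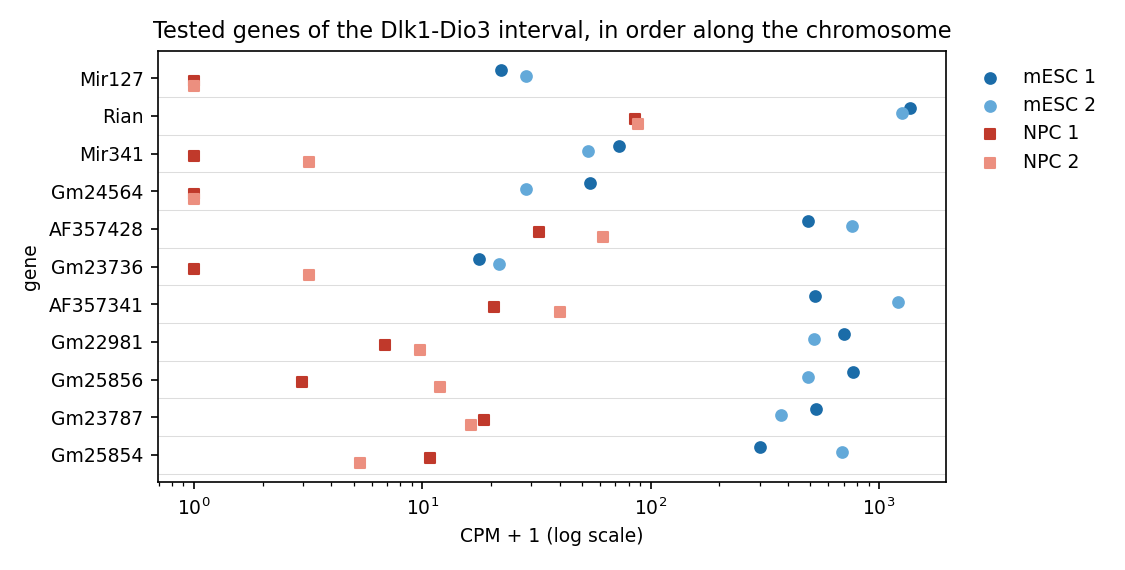
CPM plus 1 (horizontal axis, log scale) of the 11 tested genes of the Dlk1-Dio3 interval in the order of their start positions, in each KO mESC library (blue circles) and KO NPC library (red squares). Both NPC values lie below both mESC values in each gene, from Rian at 84.3 and 87.2 CPM down to genes without a count.

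Y RNAs rose together. Rny1 had 35802 and 14364 counts in mESC and 106537 and 56010 in NPC. In CPM its values were 18060 and 14070 against 208800 and 122100, and the lower NPC library was far above both mESC libraries. The log2 difference was 3.36 ± 0.33 (SE, edgeR adjusted p 1.74e-06). Rny3, from the same cluster on chromosome 6, had 397.6 and 511.3 CPM in mESC and 1848 and 1855 CPM in NPC, a log2 difference of 2.03 ± 0.24 (SE, edgeR adjusted p 7.07e-06). Gm26168 went from 43.4 and 29.4 CPM to 611.5 and 381.5 CPM, at 3.75 ± 0.44 (SE, edgeR adjusted p 8.27e-06). Given the 61 bases it has in common with Rny1, its rise is uncertain as a separate event. All 3 Y RNA genes in the list were tested and called higher, against 22% of all genes, with a median of 3.36, and Gm26168 may count reads of Rny1. Without the filter on low counts Rny3 was at 1.35 (edgeR adjusted p 0.146). The structural RNAs of the same polymerase were not called: of Rpph1, Rn7sk and Vaultrc5, the RNA of ribonuclease P, the 7SK RNA and a vault RNA, none passed. Rn7sk had 285 and 214 counts against 127 and 127, at 0.57 ± 0.30 (SE, edgeR adjusted p 0.149), and Rpph1 had 568 and 888 against 344 and 334, at 0.28 ± 0.54 (SE).

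Box C/D snoRNAs changed in both directions. Snord43, in an intron of Rpl3 (chromosome 15, 80082847 to 80082954), had 233703 and 59472 counts in mESC and 8782 and 9313 in NPC, or 117900 and 58250 CPM against 17210 and 20300 CPM. It fell by 2.23 ± 0.40 on the log2 scale (SE, edgeR adjusted p 0.000306), and by 1.64 without KO mESC replicate 1. Snord82, in an intron of Ncl (chromosome 1, 86356261 to 86356330), went from 69690 and 52090 CPM to 19420 and 23100 CPM, a fall of 1.52 ± 0.29 (SE, edgeR adjusted p 0.000533). Snord13, which stands outside any annotated host and guides acetylation rather than methylation of ribosomal RNA, had 5600 and 4801 CPM against 862.4 and 1064 CPM. Its log2 difference was -2.43 ± 0.33 (SE, edgeR adjusted p 3.18e-05). The 2 NPC libraries were close to each other in all 3 genes. Snord49a had 130400 and 86260 CPM against 53000 and 62370 CPM, at -0.91 ± 0.28 (SE, edgeR adjusted p 0.0152). That call ended without KO mESC replicate 1 (-0.58, adjusted p 0.183), without KO NPC replicate 1 (-0.80, adjusted p 0.117) and with TMM on snoRNAs alone (-0.60, adjusted p 0.0732), all by edgeR.

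In the other direction, Snord90 and Snord61 rose. Snord90, in an intron of Rc3h2 (chromosome 2, 37400047 to 37400157), had 413.2 and 427.1 CPM in mESC and 1207 and 1201 CPM in NPC, a log2 difference of 1.52 ± 0.24 (SE, edgeR adjusted p 9.01e-05). Snord61 (chromosome X, 57391449 to 57391519) went from 1802 and 1316 CPM to 3814 and 4234 CPM, at 1.37 ± 0.34 (SE, edgeR adjusted p 0.00384). Replicates were close in both genes. Snord65, one of the most counted members, had 54470 and 51370 CPM against 39700 and 47530 CPM and did not pass (-0.28 ± 0.17, SE). Of 98 listed box C/D genes, 43 had a count and 42 were tested, with 4 called higher and 11 lower, against 22% and 15.6% of all genes, and a median of -0.37. The balance depended on the scaling, with 8 higher and 7 lower and a median of 0.04 under library totals and 7 higher and 9 lower with TMM on snoRNAs. Relative to the median of all tested genes, the list stood at -0.41 or -0.42 under these 3 scalings.

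The lists of other guide RNAs held fewer counts. Among the 9 tested box H/ACA snoRNAs 2 were called higher and 0 lower, a share near the 22% of all genes, and 0 or 1 were called when any KO library was left out. Snora31, among the most counted members, had 477 and 436 counts against 152 and 153 and stood at -0.08 ± 0.38 (SE). Of 6 tested scaRNAs of the list, 3 were called higher, against 22% of all genes. Scarna9 had 137.7 and 204.7 CPM in mESC and 378.3 and 527.6 CPM in NPC, a log2 difference of 1.41 ± 0.42 (SE, edgeR adjusted p 0.0149). Its call ended without KO mESC replicate 1 (adjusted p 0.115) and without KO NPC replicate 2 (adjusted p 0.0987) in edgeR, and no scaRNA of the list was called without KO mESC replicate 1. Scarna6 had 556 and 659 counts against 238 and 226 and stood at 0.05 ± 0.45 (SE). A further scaRNA outside the list, Gm22728, in an intron of G3bp2 (chromosome 5, 92056064 to 92056192), had 257 and 99 counts against 4 and 5. It fell by 3.59 ± 0.55 (SE, edgeR adjusted p 3.49e-05). Gm22265, a U5-like small nuclear RNA, had 424 and 519 counts against 18 and 20, at -3.19 on the log2 scale, or -2.44 without KO mESC replicate 2. It has 14.9% of its 30-base stretches in common with other U5 copies.

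Messenger RNAs of neural progenitors rose in KO NPC. Tnc, which encodes the matrix protein tenascin C, had 0 and 0 counts against 25 and 17, at least 43.4-fold higher (edgeR adjusted p 2.90e-06). Ptprz1, a receptor phosphatase of radial glia, had 0 and 0 against 28 and 15 (at least 44.4-fold higher). Fabp7, the brain fatty acid binding protein, had 0 and 0 against 23 and 12 (at least 36.2-fold higher). In these 3 genes every mESC library was empty and every NPC library held more than 10 counts. Slc1a3, a glial glutamate transporter, had 7 and 4 counts against 21 and 39, or 3.53 and 3.92 CPM against 41.2 and 85.0 CPM. Slc1a3 rose by 4.05 ± 0.60 on the log2 scale (SE, edgeR adjusted p 3.39e-05), and by 3.44 without KO NPC replicate 2. Vim had 2 and 4 counts against 16 and 10 (3.59 ± 0.81, SE), or 2.73 without KO mESC replicate 1 and 4.56 without KO mESC replicate 2. Notch1 had 11 and 1 counts against 16 and 10 (2.79 ± 0.73, SE), or 4.59 without KO mESC replicate 1.

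Of the 31 progenitor genes listed, 30 had a count and 13 were tested, and these 13 were called higher, against 22% of all genes. Of them, 10 had no count in mESC. All 13 passed the filter only through NPC, so a higher value there was bound to follow. Their median was 7.13, or 4.14 with empty groups at their bound. The list as a whole summed to 59 and 23 counts in mESC and 273 and 200 in NPC. Beyond the list, Serpine2, Ckb and Marcks stood among the smallest p-values. Serpine2, an inhibitor of serine proteases, had 2 and 0 counts against 23 and 25, a ratio of 74.4 (19.5 to 632). Ckb, the brain creatine kinase, had 0 and 1 against 30 and 22, a ratio of 161 (27.7 to 6490), and Marcks, an actin regulator, had 1 and 0 against 20 and 11, a ratio of 96.1 (16 to 3920). Their fitted log2 differences of 6.003, 6.84 and 6.13 moved to 8.56, 5.59 and 7.92 without KO mESC replicate 1, and that of Ckb to 8.73 without KO mESC replicate 2. Map2, a neuronal microtubule protein, was the only one of 24 genes of neurons and glia that could be tested, with 0 and 0 counts against 15 and 8 (at least 23.8-fold higher).

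Messenger RNAs of the stem-cell state were mostly too rare to test. Over 25 pluripotency genes, 24 had a count, with 284 and 187 counts in mESC and 13 and 20 in NPC, and 2 were tested. Rif1, which acts in telomere and replication control, had 40 and 24 counts against 0 and 3, a ratio of 0.145 (0.0292 to 0.444; edgeR adjusted p 0.0034). It was not called without KO NPC replicate 1 (-1.71, edgeR adjusted p 0.0708) and was at -7.47 without KO NPC replicate 2. Trim28, a corepressor of transposable elements, had 39 and 34 counts against 5 and 12 and did not pass (-0.55 ± 0.65, SE). Sox2, which both cell types express, had 40 and 7 counts against 5 and 4 and was not tested. Fn1, the fibronectin gene on the feeder list, had 52 and 18 counts against 1 and 2, a ratio of 0.133 (0.0267 to 0.404; edgeR adjusted p 0.0136). Its call ended without KO mESC replicate 1 (adjusted p 0.0663) and without KO NPC replicate 1 (adjusted p 0.128) in edgeR. Of 25 genes of small RNA processing only Ago2, the slicing Argonaute, was tested, with 37 and 7 counts against 6 and 7 and a log2 difference of 0.00 ± 0.76 (SE).

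Mitochondrial ribosomal RNAs rose. mt-Rnr2 had 1954 and 3527 CPM in mESC and 10990 and 9212 CPM in NPC, a log2 difference of 1.88 ± 0.36 (SE, edgeR adjusted p 0.000555), and mt-Rnr1 had 740.6 and 1245 CPM against 4625 and 3251 CPM, at 1.99 ± 0.36 (SE, edgeR adjusted p 0.000296). The transfer RNA mt-Tq had 718.4 and 593.6 CPM against 3118 and 1803 CPM, at 1.91 ± 0.38 (SE, edgeR adjusted p 0.000752). It overlaps mt-Ti on the other strand. In contrast mt-Ts2, with 3506 and 1893 counts against 1074 and 1000, stood at 0.24 ± 0.38 (SE, edgeR adjusted p 0.664). Of 18 tested mitochondrial transcripts, 4 were called higher and 0 lower, a share near the 22% called higher among all genes. Of the 18, 15 were positive, with a median of 0.75 against 0.04 for all genes. The number called was 3 to 7 when 1 KO library was left out, 7 of them without KO mESC replicate 2, and 0 without the filter on low counts.

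Calls among histone genes and ribosomal-RNA-like loci were lower in NPC. Histone messages, which are made in S phase, had 0 higher and 6 lower of 21 tested genes, against 22% higher and 15.6% lower among all genes. Of the 21, 20 were negative, with a median of -1.09. Hist1h3a had 64 and 53 counts against 2 and 5, at -2.50 ± 0.63 (SE, edgeR adjusted p 0.00234), and was not called without KO NPC replicate 1 (adjusted p 0.0555). Without that library no histone gene was called, without KO mESC replicate 2 the number was 2, and under library totals or TMM on snoRNAs it was 3. Histone genes have long stretches in common, 59.4% for Hist1h3a, so single genes are uncertain. Gm26917, a ribosomal-RNA-like locus on chromosome 17 (39843013 to 39846341), had 134800 and 184100 CPM in mESC and 43020 and 69510 CPM in NPC, a log2 difference of -1.503 ± 0.31 (SE, edgeR adjusted p 0.00092). Its neighbour Gm42418 had 3902 and 12410 CPM against 18540 and 19100 CPM and did not pass (1.21 ± 0.60, SE, edgeR adjusted p 0.128), but was called without KO mESC replicate 2 (2.27, adjusted p 0.024), in the 4 KO libraries alone (1.22, adjusted p 0.0308) and with a replicate block, across cell types (1.37, adjusted p 0.0239) or within each (2.11, adjusted p 1.28e-05), all by edgeR. None of 10 tested ribosomal protein genes was called, with 3000 and 2478 counts against 847 and 913 for Rpl7a (-0.11 ± 0.28, SE).

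The change was set beside that of WT cells to ask whether loss of Htt altered it. In WT, 150 of 440 genes passed between NPC and mESC (34.1%). Of 358 genes tested in both, 128 were called in KO and 122 in WT, and 101 were called in the same direction in both, 78.9% of the KO calls and 82.8% of the WT calls, with 0 in opposite directions. Across the 331 of these genes with counts in all 4 groups, the log2 differences correlated with r = 0.918 and rho = 0.857. The genes are not independent, and both differences carry the lower depth of NPC libraries. Rny1 rose by 3.78 ± 0.35 in WT (SE) and Rian fell by 3.10 ± 0.37 (SE), and Mir293 had 2594 and 2197 counts in WT mESC and 0 and 0 in WT NPC. Mir181a-1 had 1 and 0 counts in WT mESC and 60 and 120 in WT NPC.

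**Figure D5:**
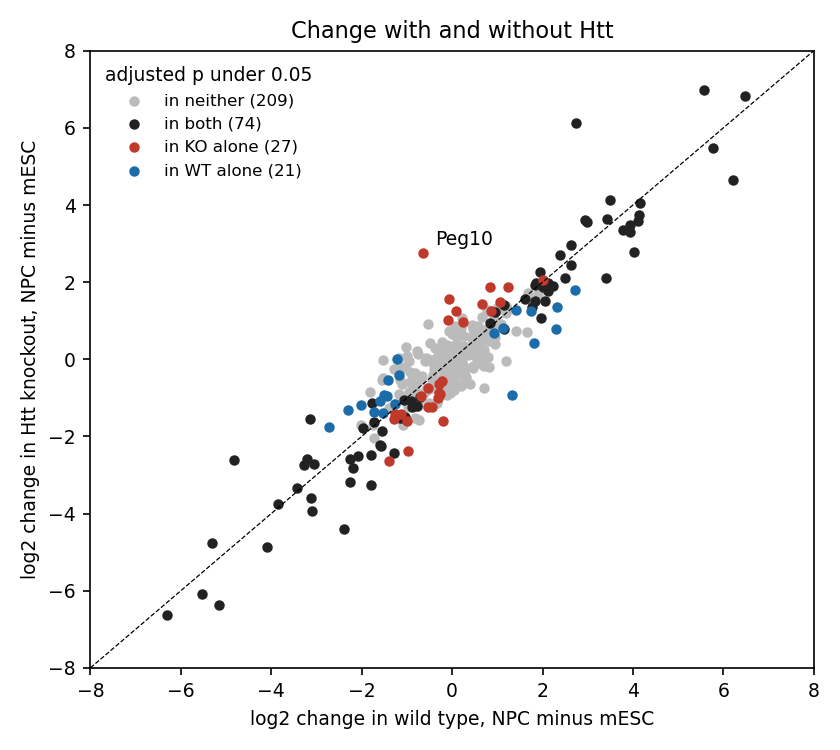
Log2 difference of NPC minus mESC in KO (vertical axis) against WT (horizontal axis) for the 331 genes with counts in all 4 groups, 1 point per gene, with the line of equal change dashed. Points lie along the line (r = 0.918), with 74 called in both, 27 in KO alone and 21 in WT alone, and Peg10 is the point labelled above it.

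The difference between the KO and the WT change was then tested gene by gene. No gene of 719 passed (0%), with 17 at an unadjusted p under 0.05 by edgeR and 9 by DESeq2, and 35 could not be tested because each side of the difference had an empty group. The smallest adjusted p was 0.112, for Peg10, an imprinted gene derived from a retrotransposon. Peg10 had 13 and 5 counts in KO mESC and 20 and 19 in KO NPC, against 22 and 13 in WT mESC and 2 and 6 in WT NPC. Within KO it rose by 2.75 ± 0.49 on the log2 scale (SE, edgeR adjusted p 0.000181), and the difference from the WT change was 3.36 ± 0.75 (SE, 95% interval 1.79 to 4.93). It passed without WT NPC replicate 2 (4.78, edgeR adjusted p 0.00816), with a replicate block (3.36, edgeR adjusted p 0.0485) and with a block within each cell type (3.36, edgeR adjusted p 0.045). Its level in the other NPC libraries spanned 2.86 to 95.2 CPM, which includes the KO values of 39.2 and 41.4 CPM.

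For the RNAs described above the interval of the difference was wide. Rny1 changed by -0.45 relative to WT (95% interval -1.56 to 0.66), Rny3 by -0.01 (-0.84 to 0.82), Rian by -0.85 (-2.05 to 0.36), Snord43 by -0.67 (-2.01 to 0.67) and mt-Rnr2 by -0.15 (-1.14 to 0.83), on the log2 scale. Snord13 had a difference of -1.18 (-2.35 to -0.02), which did not hold after adjustment (edgeR adjusted p 1). Intervals of this width do not show that the changes were alike. Mir293 and Tnc were among the genes that could not be tested.

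A second comparison used the mean change of Q50, Q92 and Q111. Q20 was left out because its NPC libraries were known to stand apart, with 51 and 56 counts of Mir293 where the other NPC had none. No gene of 647 passed (0%), with 21 at an unadjusted p under 0.05 by edgeR and 15 by DESeq2, and 45 could not be tested. The smallest edgeR adjusted p was 0.0904, for Gdi2, with 9 and 8 counts in KO mESC and 7 and 7 in KO NPC. Rny1 rose less in KO than in these lines by 1.22 (log2 difference -1.22, 95% interval -2.10 to -0.34), and this did not hold after adjustment (edgeR adjusted p 0.748). Peg10 differed by 1.77 (0.60 to 2.95), with the same edgeR adjusted p of 0.748.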

How the data were processed

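Small RNA libraries of Htt knockout mESC and NPC (2 each) were analysed with the other 20 libraries of the series. Per the labels, total RNA was sequenced as single 50-base reads. The deposited table holds raw whole-number counts per Ensembl gene, made by the authors and not normalized. The submitters' processing notes name CASAVA 1.8, STAR, HTSeq and GRCm38.p6, and strand use, trimming and the handling of reads with several matches are not given in the sources used here. Of 55335 genes, 55154 matched GENCODE M21 (GRCm38) by identifier. The columns named Q89 were taken as the Q92 samples.

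Counts were tested with edgeR 4.0.16 in R 4.3.3 (glmQLFit and glmQLFTest, TMM scaling) in a fit of 24 libraries in 12 groups, whose shared biological coefficient of variation was 32.2%. Genes passed filterByExpr (minimum count 10, minimum total 15) over the groups compared, p-values were adjusted by Benjamini and Hochberg over all of them, and 0.05 was the threshold. Log2 differences are given ± SE, and a group with 1 to 3 counts is given as a ratio with its exact 95% counting interval. Named genes were the 10 smallest p-values per direction with a log2 difference of at least 1, a mean of at least 10 CPM and groups that did not overlap. The text could also name up to 6 members with the most counts of each list. Any other gene was chosen after its values were seen: Mir182, Mir183, Mir351, Mir30a, Gm23736, Gm24564, Gm22265, Snord90, Snord61, Vim, Nanog, Pou5f1, Nes, Olig2, Pax6, Gdi2, Hist1h3a, the genes named as without a count and the genes of the closing section. The members and gene lists were chosen with earlier results of these data known. The script was tested on simulated data.

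Depth sets the precision: a count of 0 in both libraries allows 0.999 CPM in mESC and 3.1 CPM in NPC. Replicates differed by more than sampling noise (chi-square per degree of freedom 215 in mESC and 48.5 in NPC), so each library was kept. Alternatives were other scalings, filters, DESeq2 1.42.0, replicate blocks, other sets of libraries and genes, biotype classes, and leaving out each library.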

Additional observations from a re-analysis of the deposited data

How the results depend on the processing

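The KO difference called 164 genes. Without a filter on low counts 189 were called, 116 of them lower, of 12761 tested. Among the 25 microRNA genes alone 23 were called, 9 higher and 14 lower, with fewer genes tested. Leaving out 1 KO library gave 114 to 150 calls, 67 to 89 higher and 47 to 61 lower. Biotype classes put snoRNAs at 66.3% of mESC counts and microRNAs at 8.8% in mESC and 2.59% in NPC. The cause of these shifts was not tested. The replicate numbers were not taken to pair the samples: the correlation of replicate differences was 0.308 between KO mESC and KO NPC, and between KO mESC and the other mESC it was 0.71 (WT), 0.49 (Q50), 0.726 (Q92) and 0.615 (Q111) but -0.072 (Q20). The labels name no shared batch or day. A replicate block gave 183 calls, and a block within each cell type 215, Rpph1 (1.001, edgeR adjusted p 0.017) and Snord65 (-0.409, adjusted p 0.038) among them. Against the WT change 0 genes were called, but 1 with the replicate block (Peg10, 3.361, edgeR adjusted p 0.0485) and 1 with the block within cell type (Peg10, 3.358, adjusted p 0.045). Leaving out 1 KO or WT library gave 0 to 1 calls. Against the expanded lines the number was 0 under each alternative run. Genes not called changed sign: Snord65 (0.136 with library totals, 0.016 with TMM on snoRNAs), Rpl7a (0.277, 0.165, and 0.01 with the block within cell type), Snora31 (0.304, 0.196), Ago2 (-0.113 with DESeq2 size factors, -0.079 with DESeq2, -0.57 with the block within cell type, -0.132 in the 4 KO libraries, -0.004 with the filter over 24 libraries). Without the filter Ago2 was -0.744, mt-Ts2 -0.456, Rn7sk -0.096, Rpph1 -0.334 and Scarna6 -0.582. Leaving out 1 KO library, Rpph1 ranged from -0.311 to 1.291, Scarna6 from -0.429 to 0.773, Ago2 from -0.469 to 0.959, Rpl7a from -0.411 to 0.27, Snora31 from -0.436 to 0.391 Trim28 from -1.399 to 0.006 and Chd4 from -1.224 to 0.795. NPC depth limits microRNAs and messenger RNAs, of which most listed members were too rare to test.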

Other observations

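Beyond the lists, single genes that differed between KO NPC and KO mESC are named here after their values were seen. Ccnd2, which encodes a D-type cyclin, had 0 and 1 counts in mESC and 14 and 18 in NPC, and Ccnd1 had 8 and 2 against 10 and 14, a log2 difference of 2.90 (edgeR adjusted p 0.00976, or 0.075 without KO NPC replicate 2), and of 3.58 without KO mESC replicate 1. The fitted difference of Ccnd2 was 6.15, and 4.91 or 8.05 without KO mESC replicate 1 or 2. Cdkn1a, the p21 inhibitor of cyclin-dependent kinases, had 0 and 1 counts against 9 and 6. Tcf4 and Sox4, transcription factors of neural development, had 4 and 5 counts against 24 and 15 and 5 and 2 against 14 and 15, at 3.62 and 3.63 on the log2 scale. Tcf4 was at 3.00 without KO mESC replicate 1 and 4.23 without KO mESC replicate 2. Qk, an RNA-binding protein of glia, had 25 and 10 counts against 38 and 23, at 2.45 (edgeR adjusted p 0.000214). Lower in NPC were Slc2a3, a glucose transporter, with 69 and 22 counts against 0 and 0, Tet1, a 5-methylcytosine dioxygenase, with 58 and 36 against 3 and 0, and Igf2bp1, an RNA-binding protein of early development, with 36 and 17 against 1 and 0.

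Small RNAs in introns that were called or were list members could be set beside their host gene in 13 pairs with both tested. Uncalled snoRNAs outside the lists were not paired, so the pairs favour called small RNAs. Small RNA and host were both called in 6 pairs, all 6 in the same direction, from 5 hosts. Of all tested genes, 37.5% were called. In 3 more pairs the small RNA alone was called, Gm22200 (host Hspa9), Gm23969 (host Rpl7a) and Gm23751, which stood at 1.87 while its host Chd4 stood at -0.63. These 3 calls rested on single libraries: that of Gm23969 ended without any 1 KO library (edgeR adjusted p 0.0659 to 0.23), that of Gm22200 without KO mESC replicate 1 (0.113) or KO NPC replicate 2 (0.075), and that of Gm23751 without KO mESC replicate 1 (0.0991) or KO NPC replicate 1 (0.0751). Chd4 was at 0.80 without KO mESC replicate 1. The sign was the same in 10 of the 13 pairs. Snord82 fell by 1.52 and its host Ncl by 1.63, with 135 and 80 counts of Ncl in mESC and 16 and 7 in NPC. Ncl stood at -2.25 without KO NPC replicate 1. Gm22728 fell by 3.59 and G3bp2 by 2.37 (40 and 24 counts against 3 and 1), with G3bp2 at -3.24 without KO NPC replicate 1. Snord90 rose by 1.52 and Rc3h2 by 1.61 (8 and 4 counts against 6 and 6), but Rc3h2 was not called when any of the 4 KO libraries was left out (edgeR adjusted p 0.0894 to 0.143). Mir9-1 and its host Gm3764 were both without a count in mESC, with 18 and 14 counts of Gm3764 in NPC. Mir341 and Gm24564 lie in Rian. Whether host reads include unspliced or overlapping small RNA sequence was not tested.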
